A study of Mus musculus with 12 samples.

Results

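The 9 genes described here act in heme synthesis (Alas1, Alad, Urod, Cpox, Ppox and Fech), in heme breakdown (Hmox1 and Blvrb) and in electron supply to cytochrome P450 enzymes (Por). They were picked out of the tables by symbol and are 9 of the 24062 genes in the count tables. All 9 passed the filter on low counts. The libraries are bulk liver RNA-seq from 12 female C57BL/6J mice, 6 fed a control diet and 6 fed the matched diet with BIBB-515, an inhibitor of lanosterol synthase, at 55 mg/kg body weight for 10 days. The mice arrived at 6 weeks of age and were acclimated for 2 weeks, and both groups ate the control diet for the last 3 days before the start. The control mice are numbered 1 to 6 and the BIBB-515 mice 6 to 11. The study had 11 mice per group in cages of 3 or 4, and the labels do not give the cage of each mouse.

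Heme is made in steps that begin and end in mitochondria. Alas1 catalyses the entry step in liver and is the usual point of control, and Fech inserts the iron. Most heme made in hepatocytes goes to microsomal P450 enzymes, which receive electrons from NADPH through the reductase encoded by Por. Hmox1 opens the heme ring to biliverdin, and biliverdin reductases such as Blvrb reduce bilin pigments.

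The start regions of 3 genes are shown because Por and Blvrb were the members called higher with BIBB-515 and Alas1 encodes the controlled step. Each run is the RefSeq window of 300 bases, 250 before and 50 after an annotated start, in GRCm38.p6 (the mm10 assembly), written 5′ to 3′ on the gene's strand. Capitals mark matches on either strand to GCGCANGCG (core of the NRF1 site) or GGGCGG (GC box). The Por window is chr5:135688895-135689194 on the plus strand and lies just upstream of the start that the authors' annotation gives, 135689214. The Blvrb window shown is chr7:27447728-27448027 on the plus strand, and the Alas1 window shown is chr9:106247905-106248204 on the minus strand. Blvrb and Alas1 each had another window, not shown. That of Blvrb, from 27452168, held no match, and that of Alas1, from 106247681, held the same 3 NRF1 cores and no GC box.
Por: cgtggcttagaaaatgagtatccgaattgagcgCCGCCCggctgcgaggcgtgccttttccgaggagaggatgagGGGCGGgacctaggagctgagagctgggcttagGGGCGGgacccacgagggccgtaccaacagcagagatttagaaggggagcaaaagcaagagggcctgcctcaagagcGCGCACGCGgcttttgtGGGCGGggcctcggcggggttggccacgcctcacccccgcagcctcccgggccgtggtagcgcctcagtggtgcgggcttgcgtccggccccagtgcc
Blvrb: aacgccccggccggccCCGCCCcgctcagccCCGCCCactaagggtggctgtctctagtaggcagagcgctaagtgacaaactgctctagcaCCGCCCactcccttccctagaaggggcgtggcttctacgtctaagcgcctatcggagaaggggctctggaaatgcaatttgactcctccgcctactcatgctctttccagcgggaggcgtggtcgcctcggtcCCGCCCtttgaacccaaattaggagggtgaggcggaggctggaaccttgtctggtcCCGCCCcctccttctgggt
Alas1: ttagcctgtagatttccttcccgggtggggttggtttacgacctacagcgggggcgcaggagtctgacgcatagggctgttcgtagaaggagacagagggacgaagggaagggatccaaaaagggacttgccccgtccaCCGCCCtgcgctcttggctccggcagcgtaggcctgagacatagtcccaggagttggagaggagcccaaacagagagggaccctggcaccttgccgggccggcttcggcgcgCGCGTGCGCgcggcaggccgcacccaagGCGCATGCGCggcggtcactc

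The Por window held 1 NRF1 core and 4 GC boxes, the Blvrb window 5 GC boxes, and the Alas1 window 3 NRF1 cores and 1 GC box, where 2 of the 3 cores are the same palindromic run read on both strands. The search covered RefSeq windows of 7 of the 9 members, 10 windows in all. Chromosome 18 was left out of the search, so Fech was not covered, and Hmox1 had no usable window. Of all 32851 windows, 6.25% held the NRF1 core and 35.7% the GC box. The E-box CACGTG, present in 7.15% of all windows, was found in windows of Alad and Urod. The letters TGACNNNGC (core of the antioxidant response element, 12.4% of all windows) and AGGTCA (bound by nuclear receptors, 16.3%) were in none of the 10 windows. A match is a description of letters, not of a bound site.

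Library totals ran from 22764819 to 31058370 gene counts, and member counts ran from 401 for Hmox1 to 32139 for Por. The hepatocyte markers were present in every library. Their summed level was 136742 to 152395 CPM in control mice and 101765 to 116556 CPM in BIBB-515 mice, with Alb and Ttr called lower among the 5. Most of that sum was Alb, at 114347 to 127477 CPM in controls and 81798.5 to 95995.6 CPM with BIBB-515. Apoa1, Cps1 and Asgr1 were not called, with log2 fold changes of -0.27, -0.09 and 0.08. Kupffer cell and macrophage markers summed to 295 to 501 CPM and 297 to 530 CPM, with 0 of 7 called by edgeR, DESeq2 or limma-voom and 0 at an unadjusted p under 0.05. In bulk tissue, fewer cells of a type and less RNA per cell cannot be told apart. Control mouse 3 was the lowest control for Alas1, Alad, Urod, Cpox and Por and the highest for Ppox. For Urod, Por and Ppox it was close to the next control. For Alas1 and Cpox the gap to the next control was 0.50 and 0.52 of the control range. A gap test of the most outlying mouse, run for each member in each diet, passed its critical value in 0 of 18 groups. Values without control mouse 3 are given as descriptions for Alas1, Alad, Cpox, Ppox and Por, and for ratios with Alas1.

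With BIBB-515, 2 of the 9 members were called higher and 0 lower (edgeR's quasi-likelihood test, FDR under 0.05). DESeq2 and limma-voom also gave 2 higher and 0 lower, as did an unadjusted p under 0.05. Over all 12481 tested genes, 13.7% were called, 7.18% higher and 6.48% lower. The same 2 members, Por and Blvrb, were the ones whose groups did not overlap, against 7.07% of tested genes. The median log2 fold change was 0.07 over the members and -0.01 over all tested genes. A share of 2 in 9 is a small count and is not read as particular to the pathway.

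**Figure D1:**
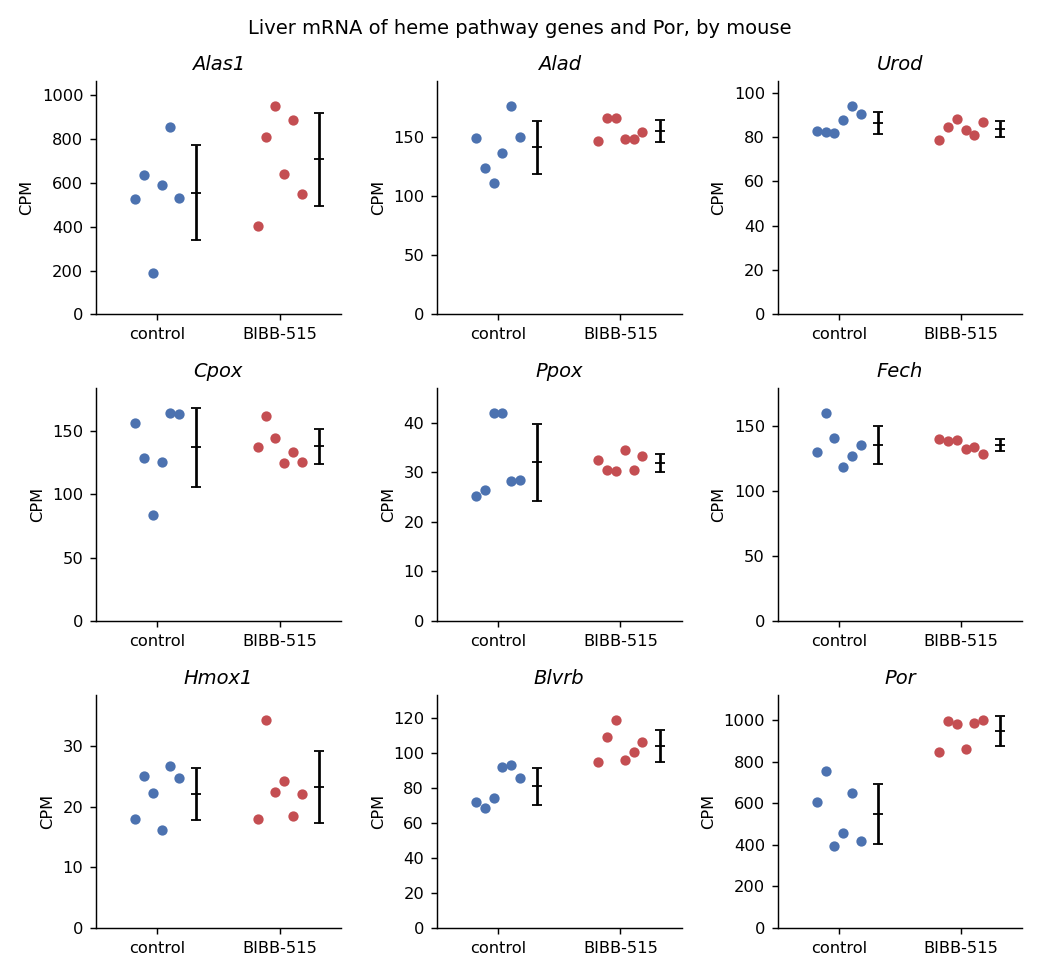
Normalised level (CPM, linear axis from 0) of each of the 9 genes in each mouse. Points are mice, in order of mouse number from left to right within a diet, and the bar beside them is the mean with 1 SD (n = 6). The diets are apart for Por and Blvrb and overlap for the other 7 genes.

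Alas1 (chromosome 9, 106233455 to 106247954, minus strand, mm10) varied more between mice than any other member. Control mice ranged from 190.8 to 856 CPM with a median of 561, and BIBB-515 mice from 403 to 952 CPM with a median of 726. The groups overlapped widely, with 2 of 6 BIBB-515 mice above all controls. The log2 fold change was 0.35 with a 95% interval of -0.25 to 0.94 (edgeR FDR 0.435). As a fold change the interval ran from 0.843 to 1.92, too wide to show a difference with 6 mice a group. Control mouse 3 held the lowest value, far under the next control mouse at 527 CPM. Without it the log2 fold change was 0.18 (FDR 0.592).

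The later enzymes of the pathway differed little between the diets. Alad, which joins 2 molecules of aminolevulinate, was at 111 to 176 CPM in controls (median 143) and 147 to 167 CPM with BIBB-515 (median 151). All 6 BIBB-515 mice were above the control mean but inside the control range, and the log2 fold change was 0.14 (95% interval -0.07 to 0.34, FDR 0.360). It was 0.086 without control mouse 3, the lowest control, and 0.22 without control mouse 5, the highest, with no call in either fit (edgeR FDR 0.525 and 0.0895). Urod, which decarboxylates uroporphyrinogen, was at 81.9 to 94.0 CPM (median 85.2) and 78.7 to 88.0 CPM (median 83.8). Its groups overlapped, with a log2 fold change of -0.05 (95% interval -0.17 to 0.07, FDR 0.601).

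Cpox, which makes protoporphyrinogen in mitochondria, was at 84.1 to 164 CPM in controls (median 143) and 125 to 162 CPM with BIBB-515 (median 135). The low end of the controls was control mouse 3 alone, the next being at 126 CPM. The log2 fold change was 0.01 (95% interval -0.28 to 0.30, FDR 0.978), and without control mouse 3 it was -0.09. Ppox, the following oxidase, was at 25.2 to 42.0 CPM (median 28.4) and 30.3 to 34.5 CPM (median 31.4). Control mice 3 and 4 were both near 42 CPM, above every BIBB-515 mouse, while the other 4 controls were below every BIBB-515 mouse. The log2 fold change was -0.01 (95% interval -0.27 to 0.26, FDR 0.982), and without control mouse 3 it was 0.09.

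Fech, the iron-inserting enzyme, was at 119 to 160 CPM in controls (median 133) and 129 to 140 CPM with BIBB-515 (median 137). The BIBB-515 mice lay inside the control range. The log2 fold change was 0.00134 (95% interval -0.15 to 0.15, FDR 0.992), so a change of more than about 1.11-fold lay outside the interval. Urod and Fech had the narrowest intervals of the 9. The ratio of Alas1 to Fech per length was 3.71 ± 1.56 in controls and 4.64 ± 1.34 with BIBB-515 (SD, n = 6). That difference was 0.41 on the log2 scale (95% interval -0.35 to 1.26, two-sided exact permutation test, p = 0.314) and 0.11 without control mouse 3.

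Hmox1 (chromosome 8, 75093618 to 75100593, plus strand), the inducible heme oxygenase, did not pass the test. Controls were at 16.1 to 26.8 CPM (median 23.5) and BIBB-515 mice at 18.01 to 34.4 CPM (median 22.4). The groups overlapped except for BIBB-515 mouse 7, whose 34.4 CPM exceeded every other mouse. The log2 fold change was 0.07 (95% interval -0.26 to 0.41, FDR 0.795), and it was -0.07 without that mouse. The same mouse had the highest summed Kupffer cell and macrophage markers, 530 CPM. The part of those cells in its Hmox1 level was not tested.

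Blvrb (chromosome 7, 27447978 to 27465981, plus strand) rose with BIBB-515. Controls were at 68.4 to 93.3 CPM (median 79.9) and BIBB-515 mice at 94.8 to 119 CPM (median 104). Every BIBB-515 mouse was above every control, although the highest control and the lowest BIBB-515 mouse were close. Blvrb increased 1.29-fold (95% interval 1.13 to 1.47), or by 0.37 on the log2 scale (SE 0.09; edgeR FDR 0.0144). Counted only over the exons nearer the 5′ end, an alternative added after seeing the data, the log2 fold change was 0.39 and the call was lost (FDR 0.0947).

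Por (chromosome 5, 135689214 to 135735325, plus strand) rose most among the members. Controls were at 396 to 754 CPM (median 530) and BIBB-515 mice at 848 to 1003 CPM (median 985). All 6 BIBB-515 mice were above the highest control, and their coefficient of variation was 7.62% against 26.4% in controls. Por increased 1.73-fold (95% interval 1.40 to 2.15), or by 0.79 on the log2 scale (SE 0.14; edgeR FDR 0.00265). Without control mouse 2, the highest control, the value was 0.91, and without control mouse 3, the lowest, 0.72.

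Per transcript length, the order of the members was the same in both diets. Por came highest, at 222 ± 58.8 RPKM in controls and 385 ± 29.3 RPKM with BIBB-515 (SD, n = 6), followed by Alas1 at 170 ± 66.3 and 217 ± 65.0 RPKM. Blvrb, Urod, Fech, Cpox, Alad, Ppox and Hmox1 followed, down to 14.1 ± 2.70 and 14.8 ± 3.78 RPKM for Hmox1. In controls the ranges of neighbours overlapped except for Urod above Fech and Alad above Ppox. With BIBB-515 they overlapped only between Fech and Cpox and between Ppox and Hmox1.

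The exon counts show where along each gene these differences lay. A read was counted on each exon it touched, so exons of a gene are not independent. In Por, the log2 ratio of mean CPM was positive in all 16 exons, from 0.73 to 0.96, and the diets did not overlap in 13 of them. In Blvrb it was 0.52 in exon 1 and declined from 0.49 to 0.29 over the last 4 exons. The remaining Blvrb exon, an alternative exon starting at 27452418, had 19 to 42 counts per library and a ratio of -0.38. All BIBB-515 mice were above all controls in 2 of the 6 Blvrb exons.

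In Alas1, 11 of 12 exons had at least 10 counts in every library and all 11 had positive ratios, from 0.32 to 0.51. The alternative exon of 557 bases held only 2 to 24 counts per library, against 147 to 929 in exon 1. In Hmox1 the ratio of means fell along the gene, from 0.40 in exon 1 through 0.37, 0.26 and 0.17 to -0.07 in the last exon. Exon 1 of Hmox1 held 19 to 85 counts per library. All BIBB-515 mice were above all controls in 0 of these 11 Alas1 exons and 0 of 5 Hmox1 exons. The balance of counts between exons nearer the 5′ and the 3′ end differed between libraries over 6557 genes, from -0.30 in control mouse 4 to 0.17 in BIBB-515 mouse 6 on the log2 scale. It did not separate the diets (two-sided exact permutation test, p = 0.528), and its part in the exon differences was not tested.

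**Figure D2:**
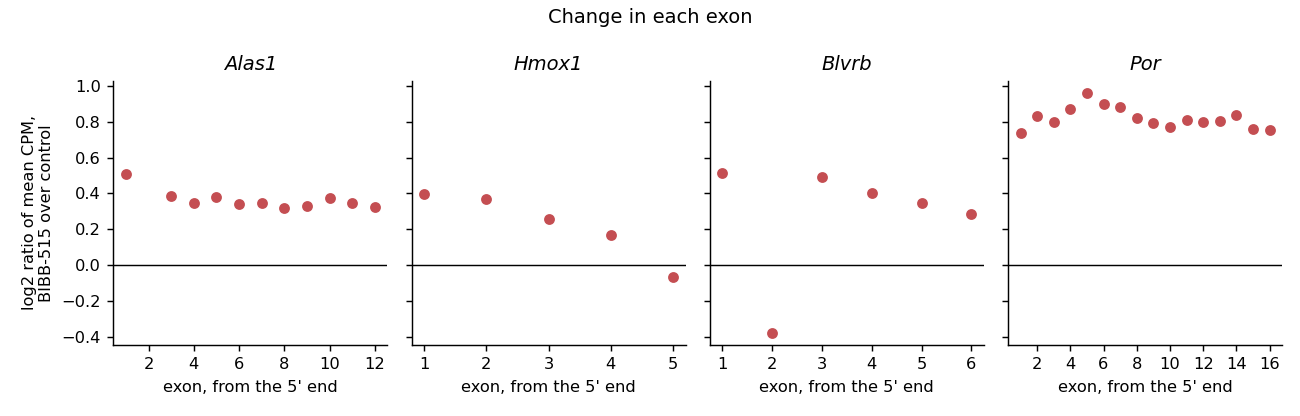
Log2 ratio of mean CPM, BIBB-515 over control (6 mice each), for each exon of Alas1, Hmox1, Blvrb and Por with at least 10 counts in every library, ordered from the 5′ end. Por lies between 0.73 and 0.96 throughout, while Hmox1 runs from 0.40 to -0.07.

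Other genes of the same steps were read from the same fit. Uros, which closes the tetrapyrrole ring, had a log2 fold change of -0.13 (FDR 0.491), and Alas2, the erythroid form of the entry enzyme, one of -0.16 (FDR 0.468). Of the 13 tested genes of synthesis and mitochondrial transport outside the members, 6 were higher and 0 lower, with a median of 0.27. At an unadjusted p under 0.05, 7 were higher and 0 lower, and DESeq2 and limma-voom each called 7 higher and 0 lower.

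Carriers and a heme-binding protein were among the called genes of that list with the lowest p. Pgrmc1, a heme-binding membrane protein that associates with P450 enzymes, went from 709 ± 71.3 to 1178 ± 89.0 CPM (SD, n = 6), which is a log2 change of 0.73. The mitochondrial iron carriers Slc25a37 and Slc25a28 had log2 fold changes of 0.74 and 0.52. These 3 also showed no overlap between the diets.

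Among 14 tested genes of heme breakdown, scavenging and bilirubin disposal, 3 were higher and 0 lower, with a median of 0.08. DESeq2 and limma-voom gave the same counts, and 1 was lower at an unadjusted p under 0.05. Slc48a1, a heme transporter of lysosomes, rose by 0.66 on the log2 scale, and Abcg2, a porphyrin exporter, by 0.40. Ugt1a1, which conjugates bilirubin, rose by 0.93, but it shares exons with 7 other Ugt1a genes, and the value was 0.67 when reads on shared exons were counted. Hmox2, the constitutive heme oxygenase, had a log2 fold change of 0.13 (FDR 0.310), and the other biliverdin reductase gene, Blvra, one of 0.05 (FDR 0.702). Hmox2 overlaps Cdip1 on the opposite strand, so part of its reads is not in these counts.

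Of 10 tested electron donors and relatives of Por, 3 were higher and 0 lower, with a median of 0.18. DESeq2 called 4 and limma-voom 3 higher, and 0 were lower by either or at an unadjusted p under 0.05. Cyb5 (Cyb5a), the microsomal cytochrome b5 that passes electrons to some P450 enzymes, rose from 661 ± 106 to 1209 ± 133 CPM (SD, n = 6), which is a log2 change of 0.87 (FDR 0.000179). Its outer mitochondrial counterpart Cyb5b had 0.20 (FDR 0.128) and the reductase gene Cyb5r3 had 0.12 (FDR 0.611). Fdxr, the reductase of mitochondrial P450 enzymes, rose by 0.55 and the quinone reductase Nqo1 by 0.74.

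**Figure D3:**
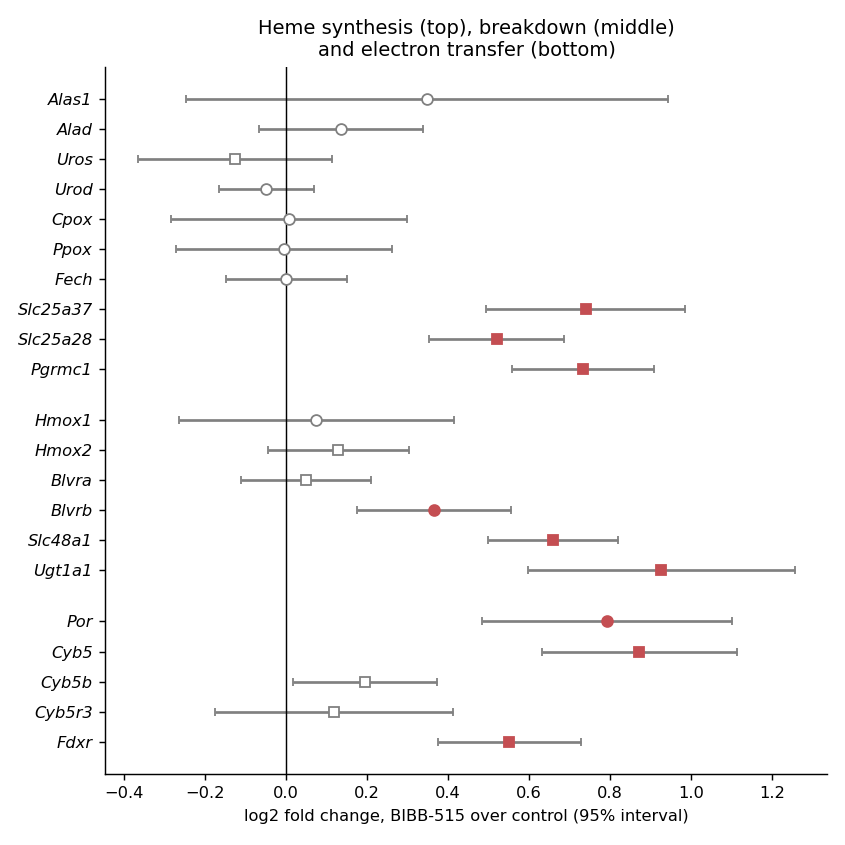
Log2 fold change, BIBB-515 over control, with 95% intervals from edgeR's quasi-likelihood fit (6 mice each). Circles are the 9 members and squares other genes of the same steps, filled where the FDR is under 0.05. Por (0.79) and Cyb5 (0.87) lie to the right, and Urod, Cpox, Ppox and Fech lie at 0 within their intervals.

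Of 14 tested regulators known to act on Alas1 or Hmox1, 1 was higher (Mafg, a small Maf partner of Bach1, 0.27) and 1 lower (Ppargc1a, a coactivator of Alas1, -0.79), with a median of 0.04. Of 6 other heme proteins, 0 were called by edgeR, DESeq2 or limma-voom or had an unadjusted p under 0.05, and their median was 0.08.

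The P450 genes, whose proteins bind heme and receive electrons through Por, gave the widest range. Of 56 tested genes of families 1 to 4, 16 were higher and 8 lower, with a median log2 fold change of 0.01. DESeq2 gave 17 higher and 11 lower, limma-voom 17 and 6, and an unadjusted p under 0.05 gave 17 and 15. By mean level per length over all 12 mice, the leading 3 were Cyp3a11, Cyp2e1 and Cyp2c29, an order set by the BIBB-515 mice for Cyp3a11 and Cyp2c29. In controls alone Cyp2e1 was highest, and Cyp2c29, at 436 ± 83.5 RPKM (SD, n = 6), was not among the leading 3. Cyp3a11 rose from 749 ± 81.05 to 7084 ± 923.9 RPKM (SD, n = 6), a log2 fold change of 3.24 (FDR 2.31e-10), and Cyp2c29 had one of 1.67. Cyp2e1 was at 2660 ± 675 and 2614 ± 234 RPKM, with a log2 fold change of -0.03 (FDR 0.934). The other P450 genes with the lowest p, Cyp2c55, Cyp3a25 and Cyp3a59, had log2 fold changes of 5.98, 1.596 and 3.14, and Cyp3a25 and Cyp3a59 share 26.8% and 30.0% of their 50-base words with other genes.

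The summed P450 level per length was 1.84-fold higher with BIBB-515 (95% interval 1.55 to 2.17, exact permutation test, two-sided, p = 0.00216, the smallest this design gives). Much of that rise was Cyp3a11, and without it the sum was 1.26-fold higher (95% interval 1.07 to 1.47, two-sided exact permutation test, p = 0.0108). As a percentage of the sum over all 56 genes, Por ran from 1.51 to 2.88% in controls (median 1.96) and from 1.83 to 2.19% with BIBB-515 (median 1.93). The groups overlapped and the log2 difference was -0.05 (95% interval -0.34 to 0.23, two-sided exact permutation test, p = 0.729). This rests on Cyp3a11. Without that gene in the sum, an alternative added after seeing the data, the Por ratio was 1.41-fold higher with BIBB-515 (95% interval 1.16 to 1.72, two-sided exact permutation test, p = 0.0108). Without control mouse 2, the highest control, the difference over all 56 genes was 0.05.

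Alas1 ran from 0.713 to 1.95% of the P450 sum in controls (median 1.65) and from 0.664 to 1.34% with BIBB-515 (median 1.19). The log2 difference was -0.46 (95% interval -1.04 to 0.18, two-sided exact permutation test, p = 0.132). Control mouse 3 was the low control, and without it the difference was -0.67 (two-sided exact permutation test, p = 0.00649). Without Cyp3a11 in the sum it was 0.08 (two-sided exact permutation test, p = 0.766). Over all 56 genes, leaving out 1 mouse at a time gave -0.67 to -0.32. The sign turned only without Cyp3a11, an alternative added after seeing the data. No direction is read from the ratio.

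**Figure D4:**
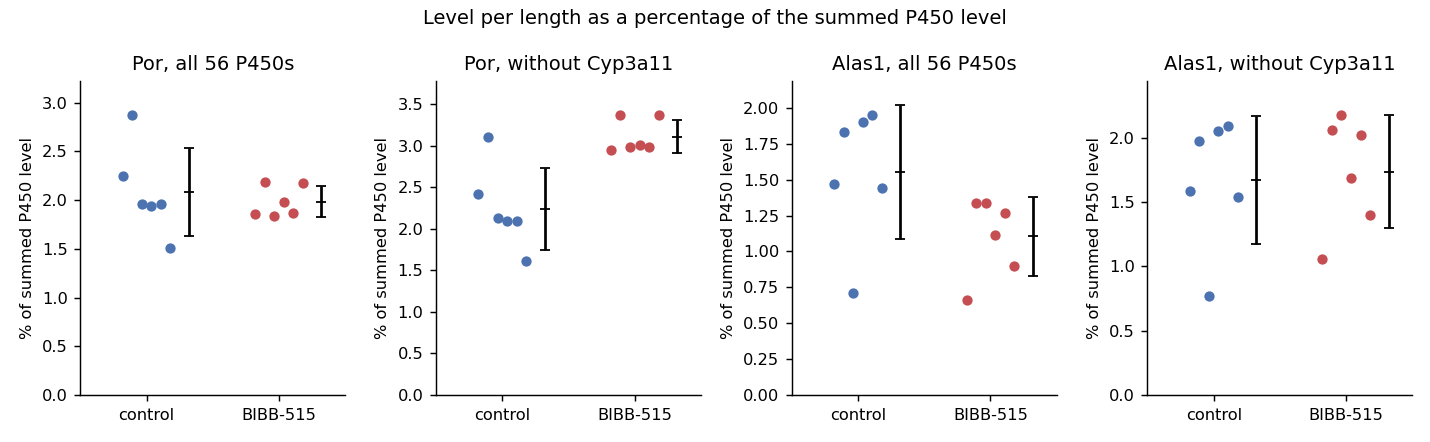
Level per length of Por and of Alas1 as a percentage of the summed level of the tested P450 genes, with and without Cyp3a11 in the sum. Points are mice and the bar is the mean with 1 SD (n = 6). Por overlaps between diets over the full sum (medians 1.96 and 1.93%), and without Cyp3a11 only control mouse 2 reaches the BIBB-515 mice.

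Between mice of the same diet, some member pairs were positively correlated, others negatively, and some hardly at all. These correlations are of log2 CPM deviations from the diet mean over 12 mice, which share libraries and diets, and are given as descriptions. Among member pairs the highest were Urod with Blvrb (Pearson r 0.87) and Alad with Cpox (0.87), and the lowest was Cpox with Ppox (-0.75). Urod with Por was near 0 (0.08). Control mouse 3 was the lowest control for Alad and Cpox and the highest for Ppox, and pair values without it are not given. Over the 11168 genes compared, those most like Alas1 were Trmt1 (0.92), Nr1i3 (0.92) and Grtp1 (0.92). Nr1i3 encodes the nuclear receptor CAR, and its own log2 fold change was 0.02 (FDR 0.929). Without control mouse 3 the 3 values were 0.83, 0.82 and 0.78.

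Among those most like Hmox1 were Vav1 (0.97) and Ncf1 (0.91), genes known for expression in blood-derived cells. Those most like Por were D10Jhu81e (0.91), Gpt (0.91) and Dlst (0.90). For D10Jhu81e the value was 0.96 within controls and 0.48 within BIBB-515 mice, whose Por levels varied little.

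**Figure D5:**
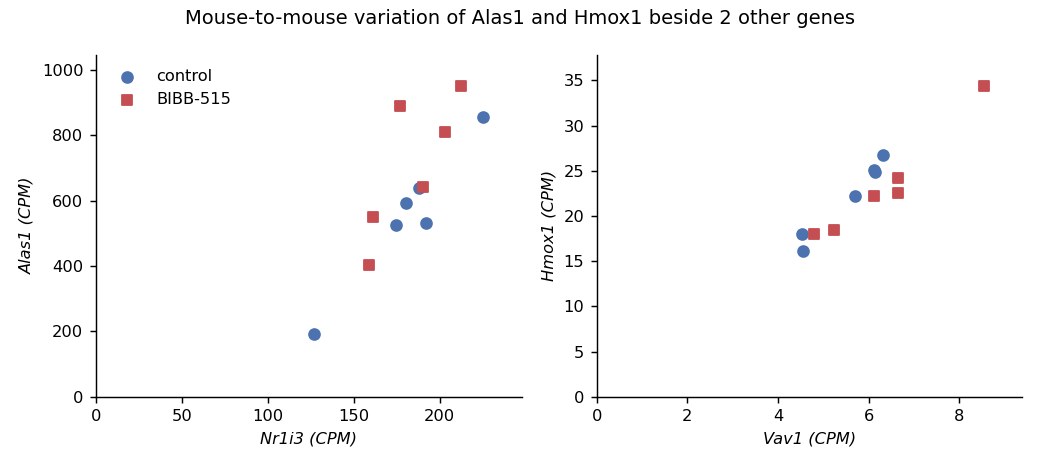
Alas1 against Nr1i3 and Hmox1 against Vav1 (CPM), 1 point per mouse, circles for control and squares for BIBB-515. Control mouse 3 is the lowest point for Alas1 (190.8 CPM), and BIBB-515 mouse 7 is the highest for Hmox1 (34.4 CPM).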

How the data were processed

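Liver RNA-seq of 12 mice was used. The authors deposited whole-number counts of reads per gene and per exon, made per the file headers with featureCounts 1.6.3 and a UCSC mm10 annotation with no strand option. The submitters' processing notes name STAR 2.5.3a. Gene counts leave out multi-mapping reads and reads shared by overlapping genes, so near-identical genes lose reads. Tables of primary alignments, which keep these reads, were an alternative, and transcript tables were not used. None of the 9 members overlaps the exons of another gene, and at most 2.36% of their 50-base words occur in other genes.

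A gene was kept if 2 of 12 libraries reached 1 CPM. After TMM normalization, edgeR 4.0.16 (R 4.3.3) ran its quasi-likelihood test with diet as the only term, with Benjamini-Hochberg adjustment over 12481 genes. CPM are counts scaled to normalized library size, and RPKM are CPM per kilobase of exon. Log2 ratios were compared by exact permutation of the diets over mice (two-sided), and their intervals invert that test. On simulated counts for this comparison (12352 genes, 200 changed at a log2 of 1), 98.5% of changed genes were recovered and 5.29% of calls were false. Common biological variation was 0.143. The design text describes 6 mice per diet, 1 library each, and the labels give no batch. Alternatives were DESeq2 1.42.0, limma-voom (limma 3.58.1), upper-quartile scaling, other filters, primary tables, 1 surrogate variable (sva 3.50.0) and each mouse left out.

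The naming rule took all members, 8 other genes of the same steps, at most 4 called genes with the lowest p per list, the 3 leading P450 genes and the 3 genes most like Alas1, Hmox1 and Por. Some genes under this rule are not reported here. Members and lists were chosen with earlier results of these data known. Other marker lists gave no called gene except Lrat (stellate cell), which was lower. Fat markers summed to at most 0.121 CPM. The 6 globin genes were at 0 in every gene table, where reads of near-identical copies are left out, so the erythroid sum (10.3 to 16.7 CPM in controls, 9.58 to 14.2 CPM with BIBB-515) was mostly Alas2. In the tables of primary alignments Hba-a1 was at 44.5 to 117 CPM in controls and 31.8 to 75.9 CPM with BIBB-515, and Hbb-b1 at 58.8 to 156 CPM and 41.9 to 89.1 CPM.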

Additional observations from a re-analysis of the deposited data

How the results depend on the processing

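Por and Blvrb were called in all 7 other fits to whole-gene counts of 12 mice and in all 12 fits that left out 1 mouse, in which the members called stayed at 2. Over those 12 fits the genes called ran from 1199 to 1865, Por from 0.72 to 0.91 and Blvrb from 0.32 to 0.42 on the log2 scale. Counts over the exons nearer the 5′ end, added after seeing the data, called 425 genes and 1 member, Por, and gave Blvrb 0.39 without a call. Fewer reads enter that fit. With counts over the exons nearer the 3′ end, 1461 genes and 2 members were called.

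Members near 0 changed sign without any call. Leaving out 1 mouse gave Cpox -0.091 to 0.073, Ppox -0.067 to 0.096, Fech -0.025 to 0.055 and Hmox1 -0.072 to 0.14. Ppox was 0.026 with limma-voom, 0.0035 with no filter, 0.0013 with primary tables and 0.016 with 1 surrogate variable. Fech was -0.00043 with 1 CPM in 6 libraries and -0.0032 over 5′ exons, and Hmox1 was -0.011 over 3′ exons. Leaving out 1 mouse gave Por over summed P450 -0.13 to 0.052 and Alas1 over summed P450 -0.67 to -0.32, and without Cyp3a11 these were 0.50 and 0.084, Cyp3a11 being the largest term of the sum with BIBB-515.

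No paired analysis was possible because the groups share only 1 replicate number. Each member had at least 401 counts in every library. The intervals hold both counting error and the spread between mice.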
